A study of Mus musculus with 16 samples.

Results

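The canonical NF-kB module of resting splenic B cells was described here through 10 genes, picked by their symbols from 27928 genes in a table of normalised RNA-seq counts. They comprise 3 activating subunits (Rela, Rel and Nfkb1), 3 classical cytoplasmic inhibitors (Nfkbia, Nfkbib and Nfkbie, which encode IkB alpha, beta and epsilon), 3 nuclear IkB proteins (Nfkbid, Nfkbiz and Bcl3) and the deubiquitinase Tnfaip3, also known as A20. All 10 genes were detected in every library and all 10 passed the filter on low values.

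In a resting B cell, dimers of Rela or Rel with the p50 product of Nfkb1 are held in the cytoplasm by classical IkB proteins. Signals through the B cell receptor, Toll-like receptors or CD40 activate the IKK kinase complex, which marks these inhibitors for degradation and lets the dimers enter the nucleus. Several targets of the dimers, among them Nfkbia, Nfkbie and Tnfaip3, encode inhibitors of the same pathway, and Tnfaip3 removes or edits ubiquitin chains upstream of the kinase complex. The nuclear IkB proteins instead bind p50 or p52 dimers on chromatin and can raise or lower transcription there. Rel is the subunit most closely tied to lymphocyte activation, and mice without Nfkb1 or Nfkbid are known for defects in marginal zone B cells.

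Total RNA had been sequenced from FACS-sorted follicular B cells (FO, CD21lo CD23hi) and marginal zone B cells (MZ, CD21hi CD23lo) of C57BL/6 mice aged 8 to 12 weeks, from WT (BL6) and conditional knockout (cKO) spleens, with 2 libraries in each of the 4 groups. The cKO mice carried Gtf2i fl/fl and a Cre driven in B lineage cells, so that the gene for TFII-I is deleted in the B lineage from early in its development on, while the WT mice are given no floxed allele and no Cre. Between 21546552 and 25083552 reads fell on genes per library. The labels do not say whether the libraries of a group came from separate mice, so that a p-value measures only the spread between these libraries. In bulk RNA a change in level per cell and a change in the share of cells that express a gene cannot be told apart.

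Normalised counts of the targeted gene Gtf2i were 2040 and 1992 (WT) and 1523 and 1531 (cKO) in FO cells, and 2864 and 2471 (WT) and 1782 and 1889 (cKO) in MZ cells, lower in cKO than in WT in both subsets, over the whole gene rather than the deleted exons. Cr2, which encodes CD21, was between 22942 and 26803 in the FO libraries and between 86953 and 97087 in the MZ libraries, and Fcer2a, which encodes CD23, was between 24802 and 41973 in FO and between 3069 and 6708 in MZ. The genotypes also differed in sex-linked transcripts. Y-linked Ddx3y reached at most 6.34 in the 4 WT libraries and was between 2682 and 5514 in the 4 cKO libraries, so that sex and genotype cannot be told apart. The library cKO FO replicate 1 held Ddx3y at 2682 together with Xist at 14748, whereas Xist was at most 89.7 in the other 3 cKO libraries. Of markers of other cells, 10 granulocyte genes summed to 1909 in cKO MZ replicate 1 and to between 47.0 and 112 in the other 7 libraries. The 10 macrophage and monocyte genes summed to between 739 and 1349 in the FO libraries and between 763 and 2074 in the MZ libraries, no gene of the marker lists was at 3 reads or fewer in every library, and 8 of the 9 T cell genes did not pass the filter on low values, with Lck as the exception.

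The regulatory sequences next to these genes are shown because NF-kB dimers bind a short kB consensus and several of the members are known targets of the pathway. RefSeq promoter windows on GRCm38.p6 were at hand for 8 of the 10 members, with none for Nfkb1 and Nfkbiz. The 10-letter kB consensus, searched on both strands in the 250 bases upstream of the annotated start, was present in 5 of the 11 windows of these members (45.5%), 1 each of Rel, Nfkbia, Nfkbie, Nfkbid and Tnfaip3, and in 7.25% of all 32851 windows of the same length. No match lay in the windows of Rela, Nfkbib and Bcl3, in the other 2 windows of Nfkbid or in the second window of Tnfaip3. A match is a description of the letters and not a measured site. The stretches below leave out bases that RefSeq or GENCODE M21 place in an exon, run 5′ to 3′ on the strand of the gene, and carry the kB matches in capitals, with the window of Bcl3 given for comparison. They lie at chr11:23770971-23771219 on the minus strand for Rel, chr12:55492648-55492897 on the minus strand for Nfkbia, chr17:45555450-45555699 on the plus strand for Nfkbie, chr7:30422156-30422339 on the plus strand for Nfkbid, chr10:19015411-19015547 on the minus strand for Tnfaip3 and chr7:19822825-19823005 on the minus strand for Bcl3.
Rel: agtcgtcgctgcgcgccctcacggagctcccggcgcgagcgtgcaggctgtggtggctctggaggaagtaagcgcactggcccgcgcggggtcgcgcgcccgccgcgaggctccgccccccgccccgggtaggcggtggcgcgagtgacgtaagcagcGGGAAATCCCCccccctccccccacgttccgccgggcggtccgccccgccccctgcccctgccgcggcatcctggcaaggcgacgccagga
Nfkbia: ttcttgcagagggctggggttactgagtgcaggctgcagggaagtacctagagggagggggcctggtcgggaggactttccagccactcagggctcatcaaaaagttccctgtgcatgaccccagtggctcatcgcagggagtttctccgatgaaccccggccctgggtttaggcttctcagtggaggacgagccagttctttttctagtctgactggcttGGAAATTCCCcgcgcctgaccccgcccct
Nfkbie: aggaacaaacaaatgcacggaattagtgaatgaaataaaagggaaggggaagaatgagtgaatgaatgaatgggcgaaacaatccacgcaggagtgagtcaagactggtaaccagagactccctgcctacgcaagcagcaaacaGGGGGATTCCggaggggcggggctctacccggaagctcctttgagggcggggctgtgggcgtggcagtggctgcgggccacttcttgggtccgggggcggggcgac
Nfkbid: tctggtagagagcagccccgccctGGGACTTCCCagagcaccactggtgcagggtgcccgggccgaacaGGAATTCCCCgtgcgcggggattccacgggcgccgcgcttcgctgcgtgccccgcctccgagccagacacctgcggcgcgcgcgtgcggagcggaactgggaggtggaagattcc
Tnfaip3: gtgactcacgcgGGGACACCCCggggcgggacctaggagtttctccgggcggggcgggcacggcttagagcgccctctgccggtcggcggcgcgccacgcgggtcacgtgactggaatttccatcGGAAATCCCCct
Bcl3: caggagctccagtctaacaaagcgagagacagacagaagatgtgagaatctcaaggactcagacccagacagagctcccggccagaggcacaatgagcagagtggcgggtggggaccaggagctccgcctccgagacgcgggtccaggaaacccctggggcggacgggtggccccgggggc

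In Rel the capitals hold 2 overlapping matches that begin 92 and 91 bases before the start. Tnfaip3 has separate matches that begin 125 and 12 bases before the start. Its printed stretch lies within the gene as GENCODE M21 places it, at chr10:19000910-19015657. The Nfkbid window, which belongs to 1 of 3 annotated starts of that gene and lies within the gene as read from the first of them, has matches that begin 226 and 181 bases before its start. The single matches of Nfkbia and Nfkbie begin 29 and 106 bases before the start.

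Per kilobase of exon, the mean normalised count over the 8 libraries was highest for the nuclear IkB gene Nfkbid at 4865, followed by Rel at 2833 and Nfkbia at 2582. A middle group held Nfkbie at 1205, Tnfaip3 at 1083, Rela at 1067, Nfkbiz at 835 and Nfkb1 at 785, and Nfkbib at 645 and Bcl3 at 559 were lowest. The length was that of all annotated exons of a gene merged, from 1610 bases for Nfkbia to 12061 for Nfkb1. It does not depend on which transcripts these cells use, so the order is uncertain for genes with many annotated exons. Before division by length, Nfkb1 had a mean of 9470 and Nfkbia of 4157. Neighbours in this order were not all apart, since the highest library of Rel was 3.22 times its lowest, that of Nfkbid 3.15 times and that of Tnfaip3 2.88 times. The corresponding ratio was 1.40 for Rela, 1.43 for Nfkb1 and 1.37 for Nfkbib.

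**Figure D1:**
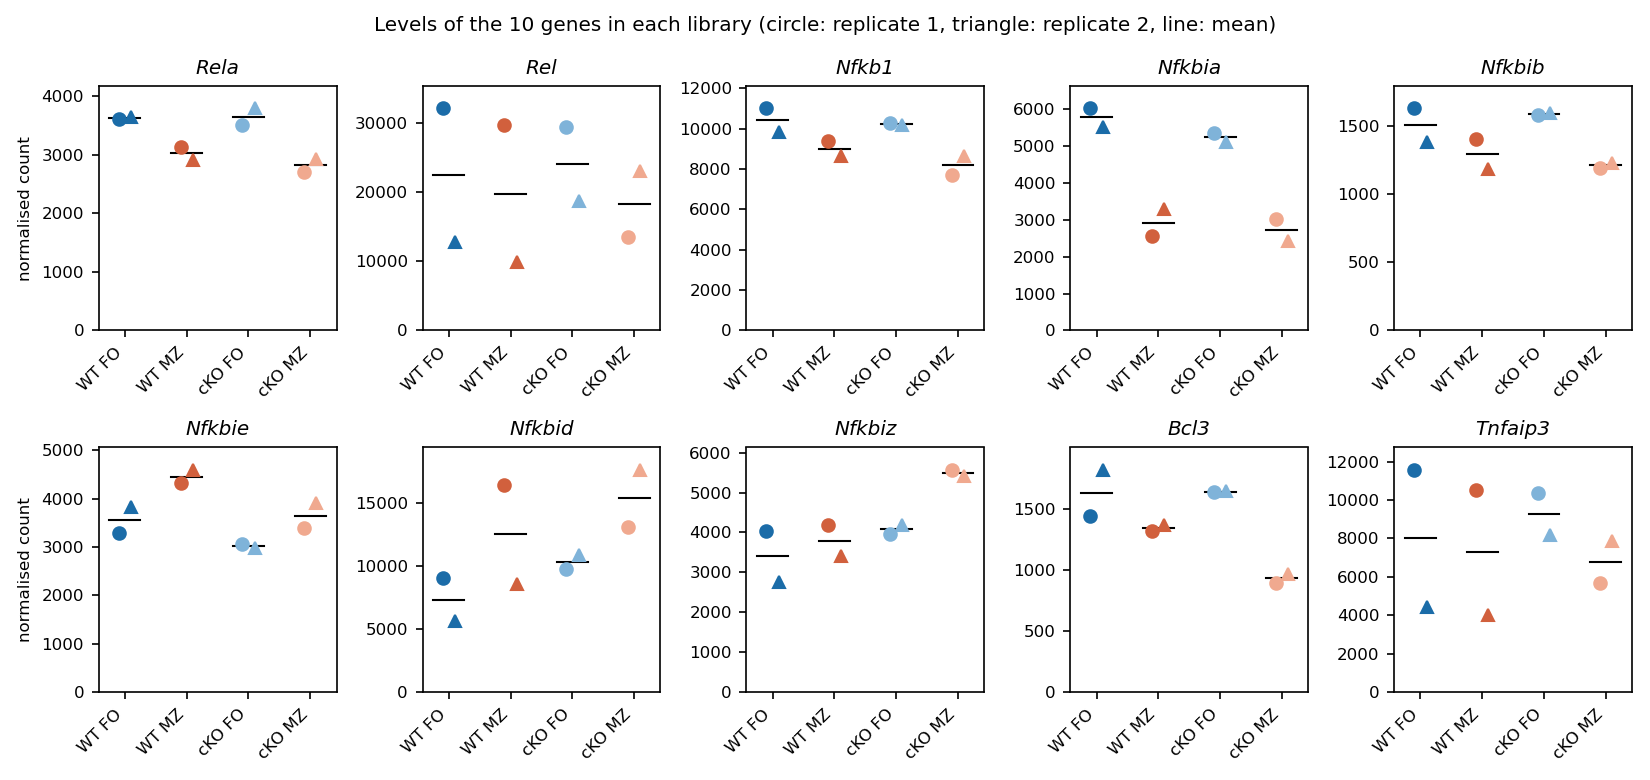
Normalised count (y axis, from 0) of each of the 10 genes in the 2 libraries of WT FO, WT MZ, cKO FO and cKO MZ, with circles for replicate 1, triangles for replicate 2 and a line at the group mean. Nfkbia separates the FO libraries (5100 to 6009) from the MZ libraries (2422 to 3281), whereas the libraries of one group lie far apart for Rel and Tnfaip3.

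The first comparison asked how the module differs between the FO and MZ subsets. Nfkbia, an inhibitor that NF-kB itself rapidly induces, was 1.96 times as high in FO as in MZ cells of both genotypes, while Nfkbie, another inhibitor of the same class, was lower in FO. Rela, Nfkb1, Nfkbib and Bcl3 were modestly higher in FO, and the nuclear IkB genes Nfkbid and Nfkbiz had lower values in FO. A gene was called when the limma fit across 14761 genes gave an adjusted p of at most 0.05 (Benjamini-Hochberg) and a difference of at least 1.5-fold. Nfkbia alone of the 10 was called over both genotypes, where 18.4% of all genes were called, and in WT, where 12% were. In cKO, Nfkbia and Bcl3 were called, where 13.7% of all genes were.

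The cytoplasmic inhibitors split between the subsets. Nfkbia stood at 6009 and 5511 (WT) and 5351 and 5100 (cKO) in FO cells, and 2556 and 3281 (WT) and 3026 and 2422 (cKO) in MZ cells. Every FO library was above every MZ library. On the log2 scale it was higher in FO by 0.99 ± 0.15 (SE) in WT, with an adjusted p of 0.0040 from limma, by 0.95 ± 0.15 in cKO, with an adjusted p of 0.0043, and by 0.97 ± 0.10 over both genotypes, with an adjusted p of 3.9e-04. Without cKO FO replicate 1 or without cKO MZ replicate 1 the cKO difference was 0.91 or 1.11 and remained called. Its difference between the subsets did not depend detectably on genotype, since the WT difference exceeded the cKO difference by 0.04 (95% interval -0.44 to 0.52).

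Nfkbie ran the other way, at 3291 and 3835 (WT) and 3057 and 2969 (cKO) in FO cells, and 4312 and 4596 (WT) and 3383 and 3913 (cKO) in MZ cells. Within each genotype both MZ libraries were above both FO libraries. The log2 difference over both genotypes, FO minus MZ, was -0.30 ± 0.08 (SE), with an adjusted p of 0.0201 by limma but a fold below the cutoff. The ratio of the Nfkbia count to the Nfkbie count was accordingly between 1.44 and 1.83 in the 4 FO libraries and between 0.593 and 0.895 in the 4 MZ libraries. Nfkbib, the third classical inhibitor, was at 1629 and 1384 (WT) and 1581 and 1596 (cKO) in FO cells, and 1402 and 1185 (WT) and 1194 and 1224 (cKO) in MZ cells. Its WT groups overlapped, its cKO groups did not, and it was higher in FO by 0.31 ± 0.08 over both genotypes with an adjusted p of 0.0241 by limma. The span of Nfkbib overlaps that of Sirt2, a deacetylase gene on the opposite strand that was between 1749 and 2075. Whether the counting used strand is not given in the sources used here.

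Of the activating subunits, Rela and Nfkb1 were higher in FO by less than 1.5-fold, and Rel was too variable to place. Rela, which carries a transactivation domain, was at 3602 and 3638 (WT) and 3499 and 3791 (cKO) in FO cells, and 3137 and 2914 (WT) and 2707 and 2925 (cKO) in MZ cells. No MZ library reached an FO library. The log2 difference over both genotypes was 0.32 ± 0.06 (SE), with an adjusted p of 0.0061 by limma, and it was 0.37 in cKO, with an adjusted p of 0.0222. Nfkb1, the source of p105 and p50, was at 11017 and 9855 (WT) and 10276 and 10202 (cKO) in FO cells, and 9371 and 8658 (WT) and 7705 and 8673 (cKO) in MZ cells, again without overlap within a genotype. It was higher in FO by 0.27 ± 0.07 with an adjusted p of 0.0215 by limma, below the fold cutoff. Rel was at 32109 and 12761 (WT) and 29447 and 18720 (cKO) in FO cells, and 29615 and 9964 (WT) and 13501 and 23094 (cKO) in MZ cells. Its groups overlapped throughout, and its log2 difference of 0.32 had a 95% interval from -0.65 to 1.30.

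Among the nuclear IkB genes, Bcl3 was at 1436 and 1817 (WT) and 1635 and 1641 (cKO) in FO cells, and 1316 and 1367 (WT) and 894 and 966 (cKO) in MZ cells. Antisense genes that overlap it were at most 35.2. The FO libraries were above the MZ libraries in both genotypes, with a narrow gap in WT and a wide gap in cKO. Bcl3 was higher in FO by 0.82 ± 0.12 (log2, SE) in cKO, with an adjusted p of 0.0036 by limma, whereas the WT difference of 0.27 ± 0.12 had an adjusted p of 0.183. Without cKO MZ replicate 1, the library with the granulocyte transcripts, the cKO difference was 0.76 and remained called. Over both genotypes it was 0.54 ± 0.09 with an adjusted p of 0.0024, below the fold cutoff. The test of the difference itself, WT minus cKO, gave -0.55 (95% interval -0.95 to -0.15), with an unadjusted p of 0.0133 from the limma fit and an adjusted p of 1.00. No gene of the 14761 was called in that test (0%), where 94 had an unadjusted p under 0.05, and DESeq2 and edgeR also called 0.

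Nfkbid, known for its role in MZ B cell and B1 cell development, was at 9053 and 5608 (WT) and 9823 and 10920 (cKO) in FO cells, and 16471 and 8594 (WT) and 13148 and 17682 (cKO) in MZ cells. The WT groups overlapped and the cKO groups did not. The log2 difference, FO minus MZ, was -0.65 ± 0.23 (SE) over both genotypes with an adjusted p of 0.0661 by limma, with -0.74 in WT and -0.56 in cKO. Without WT FO replicate 1 or without WT MZ replicate 2 it was -0.82 or -0.88 and was called, without WT FO replicate 2 or without WT MZ replicate 1 it was -0.48 or -0.41 and was not, and without WT FO replicate 1 Bcl3 was called too, at 0.63. Nfkbiz, an inducible coactivator of secondary NF-kB targets, was at 4033 and 2768 (WT) and 3960 and 4195 (cKO) in FO cells, and 4187 and 3401 (WT) and 5574 and 5411 (cKO) in MZ cells. Its WT groups overlapped and its cKO groups did not, and the log2 difference over both genotypes was -0.30 ± 0.12 with an adjusted p of 0.0986 by limma.

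Tnfaip3 was at 11575 and 4412 (WT) and 10362 and 8185 (cKO) in FO cells, and 10523 and 4022 (WT) and 5653 and 7870 (cKO) in MZ cells. The WT groups overlapped over nearly their whole range, the cKO groups did not overlap, and the log2 difference over both genotypes of 0.30 had a 95% interval from -0.57 to 1.17. With the adjusted p alone and no fold cutoff, 6 of the 10 genes passed over both genotypes (Rela, Nfkb1, Nfkbia, Nfkbib, Nfkbie and Bcl3), against 33.4% of all genes. Of these, Nfkb1, Nfkbib and Nfkbie did not pass in every alternative fit. On the same rule 1 passed in WT (Nfkbia), against 16.9%, and 3 passed in cKO (Rela, Nfkbia and Bcl3), against 19.6%. Libraries did not overlap in either genotype for 4 genes that were higher in FO (Rela, Nfkb1, Nfkbia and Bcl3), against 21.6% of all genes, and for 1 that was higher in MZ (Nfkbie), against 22.3%. The median log2 difference of the 10 genes was 0.30, and that of all genes tested was 0.00. The former depends on the scaling. After quantile normalization the difference, FO minus MZ, was lower for each of the 10 genes, with 0.21 for Rela, 0.12 for Nfkb1 and 0.16 for Tnfaip3. The median of all genes was then 0.04.

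**Figure D2:**
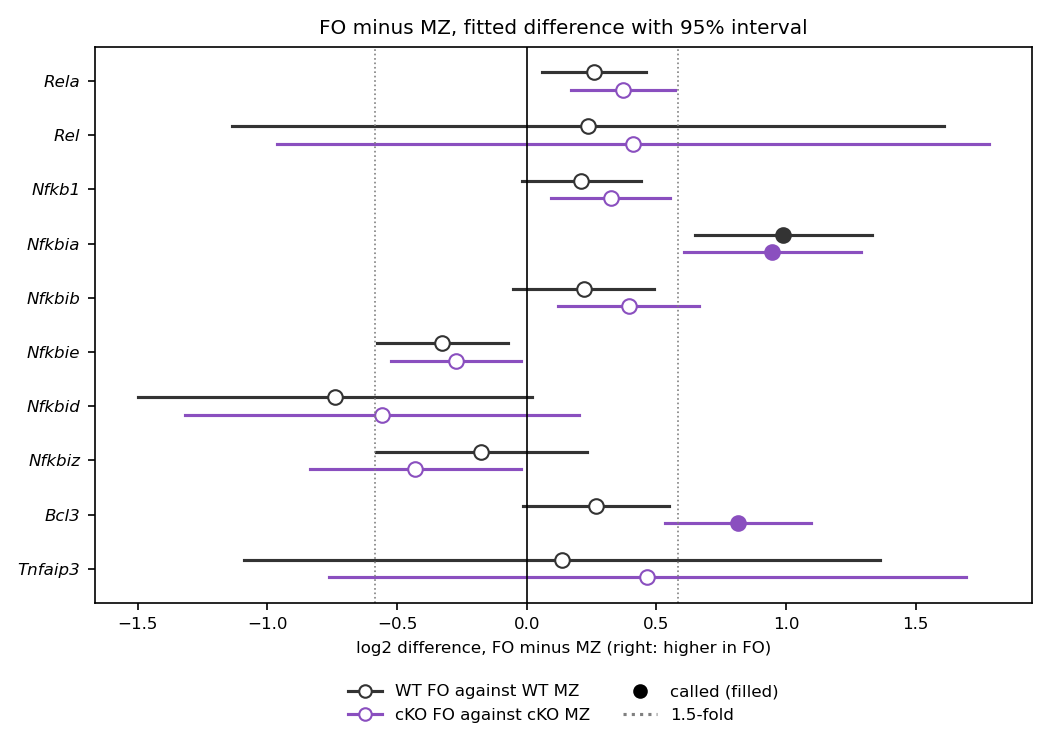
Fitted log2 difference, FO minus MZ (x axis), for each of the 10 genes (y axis) in WT (black) and cKO (purple), with 95% intervals as bars, filled points for called genes and dotted lines at 1.5-fold. Nfkbia is filled in both genotypes and Bcl3 in cKO only, at 0.82 against 0.27 in WT, and the bars of Rel and Tnfaip3 span more than those of any other gene shown.

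The rest of the pathway was read in the same fit, on lists of related genes. Of 19 genes of the kinase complex and its upstream adaptors, 2 were called higher in FO over both genotypes and 0 lower, a smaller share than the 18.4% of all genes called. These were Ikbkb, the catalytic IKK beta kinase, with a log2 difference of 0.59, and Prkcb, the protein kinase C that links the B cell receptor to that complex, with 0.70. Of 12 tested partners of A20 and other brakes, Tax1bp1, an adaptor of A20, was called higher in FO at 0.59, and Pdlim2, a ubiquitin ligase for nuclear Rela, was called higher in MZ at -0.97, a share near that of all genes. Of 9 tested genes of the noncanonical branch, which works through Nfkb2 and Relb, 0 were called over both genotypes, and their median log2 difference was 0.29. With an adjusted p of at most 0.05 by limma and no fold cutoff, 6 of these 9 passed, against 33.4% of all genes. On that rule 8 of the 19 kinase and adaptor genes, 4 of the 12 brakes and 14 of 20 tested NF-kB target genes passed. Of 20 tested NF-kB target genes, 3 were called higher in FO and 7 higher in MZ, with a median of -0.42, and of all genes called in this comparison 40.6% were higher in FO. Those with the smallest p were the cytokine Il10 at -4.25, the adaptor Traf1 at -1.35, the survival gene Bcl2a1b at -1.45, whose near-identical copies make its count uncertain, and the adhesion gene Icam1 at -0.60. The genes called higher in FO were the chemokine receptor Ccr7 at 1.94, Slamf1 at 1.55 and the activation marker Cd83 at 1.16. Ccr7 was between 10944 and 19574 in the FO libraries and between 3121 and 5789 in the MZ libraries. Traf1 was between 1448 and 1967 in FO and between 3851 and 4884 in MZ. The part of other cells in these differences was not tested.

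Over the 8 libraries, the genes outside the 10 whose log2 levels ran most like those of Nfkbia were Ddah2, Cep83 and Pdcl, each with Pearson's r of 0.99. For Bcl3 they were Nelfb, Mta2 and Naa60, each with r of 0.97. All these points share the same libraries, and the FO and MZ levels set much of the pattern for Nfkbia.

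The second comparison asked whether deletion of Gtf2i altered the module. None of the 10 genes was called between cKO and WT by limma in FO, where 0.0677% of all genes were called, in MZ, where 0.0339% were, or over both subsets, where 0.108% were. DESeq2 and edgeR on the recovered reads also called 0 of the 10 in each. An unadjusted p under 0.05 was reached by 0 members in FO, where 2.59% of all genes reached it, by Nfkbie, Nfkbiz and Bcl3 in MZ, where 4.04% did, and by the same 3 over both subsets, where 6.63% did. Over both subsets the 95% interval of the fold, cKO over WT, ran from 0.736 to 0.942 for Nfkbie, from 0.730 to 0.962 for Bcl3 and from 1.09 to 1.63 for Nfkbiz, on one side of 1 before adjustment. It ran from 0.877 to 1.07 for Rela, from 0.844 to 1.06 for Nfkb1, from 0.780 to 1.09 for Nfkbia, from 0.872 to 1.14 for Nfkbib and from 0.940 to 1.98 for Nfkbid. For Rel it ran from 0.557 to 2.14 and for Tnfaip3 from 0.630 to 2.10, so that differences of 1.5-fold in either direction lie inside these intervals. An increase of 1.5-fold also lies inside the intervals of Nfkbid and Nfkbiz.

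Bcl3 in MZ cells had the smallest unadjusted p of the 10 genes in these genotype comparisons. Both cKO MZ libraries (894 and 966) were below both WT MZ libraries (1316 and 1367), whereas cKO FO (1635 and 1641) lay between the WT FO libraries (1436 and 1817). The log2 difference in MZ, cKO minus WT, was -0.53 ± 0.12 (SE), with an unadjusted p of 0.0027 and an adjusted p of 0.715 from the limma fit. The 10 granulocyte markers summed to 1909 in cKO MZ replicate 1 and 112 in cKO MZ replicate 2, and without the former the difference was -0.47.

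Nfkbiz was higher in the cKO MZ libraries (5574 and 5411) than in the WT MZ libraries (4187 and 3401), with a log2 difference of 0.54 ± 0.18 (SE), an unadjusted p of 0.0156 and an adjusted p of 0.998 from the limma fit. Without cKO MZ replicate 1 it was 0.52. In FO the cKO libraries (3960 and 4195) overlapped the WT libraries (4033 and 2768). Over both subsets the difference was 0.41, with an adjusted p of 0.646 by limma.

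Nfkbie was the only 1 of the 10 whose WT libraries were above the cKO libraries in both subsets, at 3291 and 3835 against 3057 and 2969 in FO and at 4312 and 4596 against 3383 and 3913 in MZ. Its log2 difference, cKO minus WT, was -0.24 in FO, -0.29 in MZ and -0.26 ± 0.08 (SE) over both, with an adjusted p of 0.608 by limma. Without cKO FO replicate 1, the library with both sex-linked transcripts, the FO value was -0.26, and without cKO MZ replicate 1 the MZ value was -0.19.

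Counts of genes without overlap were close to the background. In FO, 1 of the 10 (Nfkbid) was higher in both cKO libraries, against 10.9% of all genes, and 2 (Nfkbia and Nfkbie) were higher in both WT libraries, against 13.1%. Nfkbid in FO differed by 0.54 on the log2 scale and by 0.62 without cKO FO replicate 1, and Nfkbia by -0.14 and -0.17, both uncalled. In MZ, 1 (Nfkbiz) was higher in cKO, against 15.8%, and 2 (Nfkbie and Bcl3) were higher in WT, against 18.7%. In both subsets together 0 were higher in cKO, against 3.88%, and 1 (Nfkbie) was higher in WT, against 5.46%. Of the 60 tested genes on the pathway lists (kinase complex, brakes, noncanonical branch and targets), limma, DESeq2 and edgeR each called 0 between the genotypes in FO, in MZ and over both subsets. In the limma fit 0, 5 and 4 of them had an unadjusted p under 0.05 in these comparisons, against 2.59%, 4.04% and 6.63% of all genes.

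**Figure D3:**
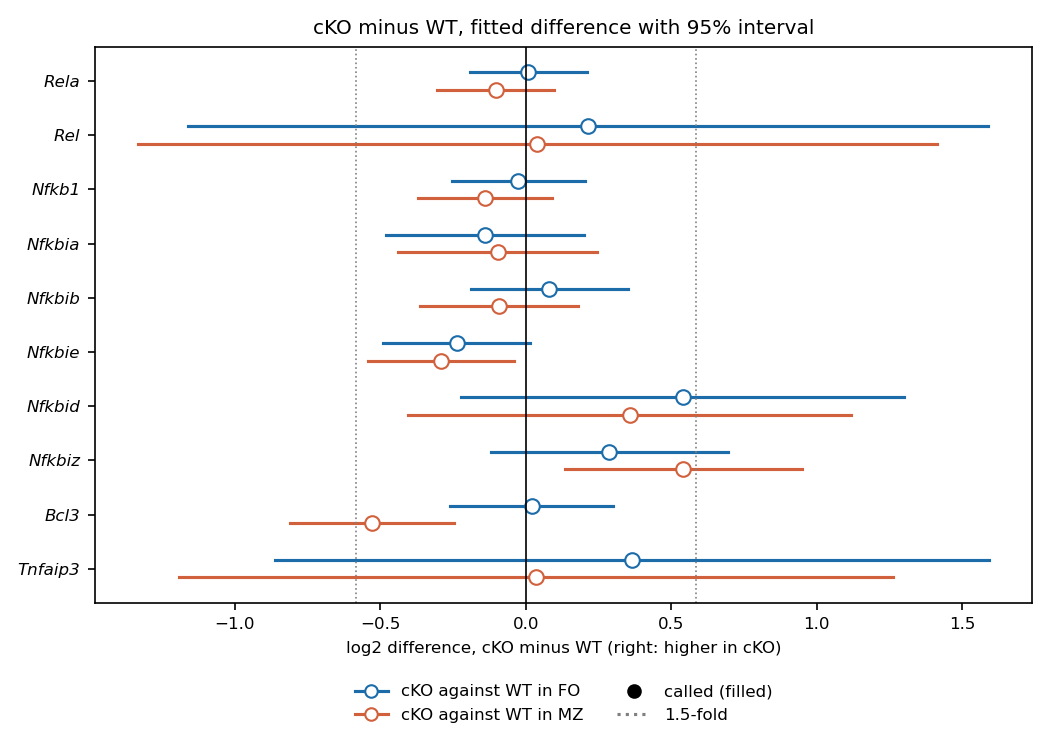
Fitted log2 difference, cKO minus WT (x axis), for each of the 10 genes (y axis) in FO (blue) and MZ (orange), with 95% intervals as bars and dotted lines at 1.5-fold. No point is filled, as no gene was called, and in MZ the intervals of Bcl3 (-0.81 to -0.25), Nfkbie (-0.54 to -0.04) and Nfkbiz (0.13 to 0.95) lie on one side of 0.

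The third question was how the module varied between libraries of one group. Rel, Tnfaip3 and Nfkbid varied most, and in both WT groups they were higher in replicate 1. Rel was 2.52 times as high in replicate 1 as in replicate 2 of WT FO, 2.97 times in WT MZ and 1.57 times in cKO FO, whereas in cKO MZ replicate 2 was 1.71 times as high as replicate 1. Tnfaip3 followed the same course, with replicate 1 higher by 2.62 times in WT FO, 2.62 times in WT MZ and 1.27 times in cKO FO, and replicate 2 higher by 1.39 times in cKO MZ. Nfkbid was higher in replicate 1 by 1.61 times in WT FO and 1.92 times in WT MZ, and higher in replicate 2 by 1.11 times in cKO FO and 1.34 times in cKO MZ.

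These 3 genes were the members at least 1.5-fold higher in replicate 1 of WT FO, where 10.2% of all genes were, of WT MZ, where 7.73% were, and of both groups at once, where 4.67% were. No member was at least 1.5-fold higher in replicate 2 of either WT group, where 10.2% and 9.98% of all genes were. In cKO FO, Rel alone was at least 1.5-fold higher in replicate 1, against 8.62%, and no member was in replicate 2, against 6.7%. In cKO MZ no member was in replicate 1, against 6.37%, and Rel alone was in replicate 2, against 5.5%. Rel was thus shifted one way in both WT groups and the other way in cKO MZ, as were 1.11% of all genes.

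The ratio of the Rel count to the Tnfaip3 count stayed between 2.29 and 2.93 over the 8 libraries, while Rel alone spanned 3.22-fold and Tnfaip3 2.88-fold. The ratio of Rel to Rela, in contrast, ranged from 3.42 to 9.44. Rela and Nfkb1, the other activating subunits, differed by at most 1.08 and 1.13 times between libraries of a group, and the highest such ratio was 1.28 for Nfkbia, 1.18 for Nfkbib, 1.17 for Nfkbie, 1.27 for Bcl3 and 1.46 for Nfkbiz.

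**Figure D4:**
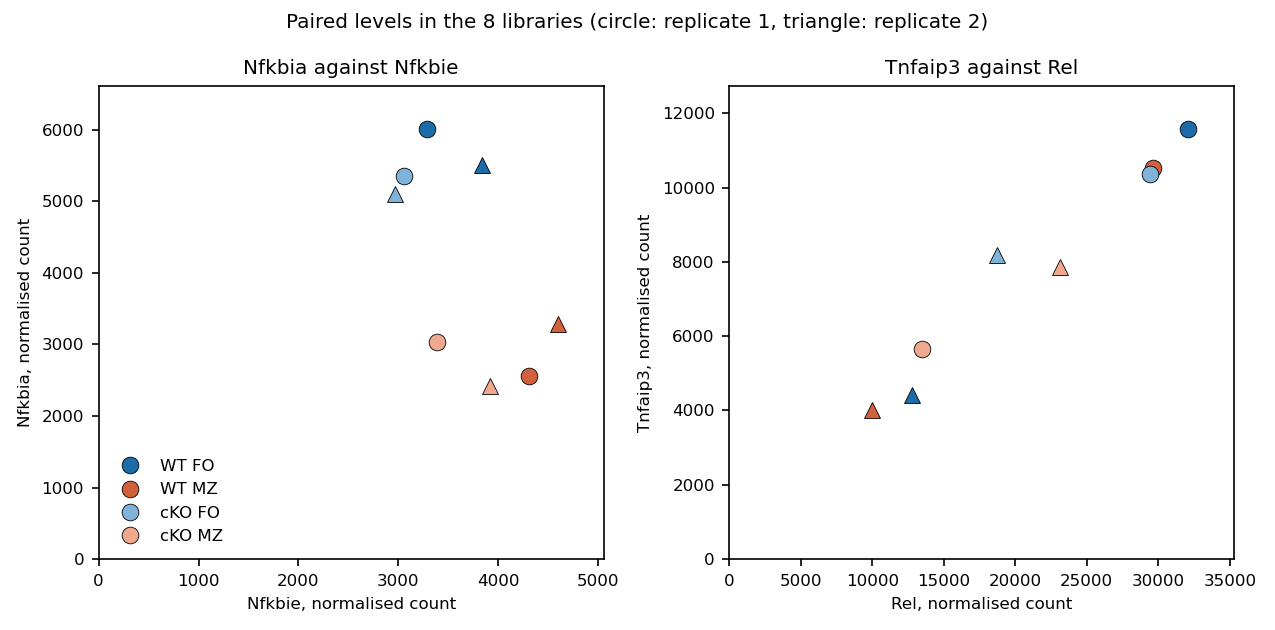
Normalised counts of Nfkbia against Nfkbie (left) and of Tnfaip3 against Rel (right) in the 8 libraries, with both axes from 0, colours for the 4 groups, circles for replicate 1 and triangles for replicate 2. On the left the FO and MZ libraries form separate sets, with ratios of 1.44 to 1.83 and 0.593 to 0.895, and on the right libraries of all groups lie near one line, with ratios of Rel to Tnfaip3 of 2.29 to 2.93.

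Immediate early genes, which are transcribed within minutes of receptor signals or of cell stress, differed between the same libraries. Of 22 such genes, 11 were at least 1.5-fold higher in replicate 1 of WT FO and 3 in replicate 2, and 12 and 2 were in WT MZ. In cKO FO 6 were higher in replicate 1 and 1 in replicate 2. In cKO MZ 0 were higher in replicate 1 and 9 in replicate 2, and all 22 had the higher value in replicate 2. Their summed levels were 198527 and 167657 (WT) and 208633 and 197693 (cKO) in FO cells, and 249681 and 165508 (WT) and 191186 and 251328 (cKO) in MZ cells, so the larger sum lay in the library with more Rel in every group. Their part in the variation of Rel, Tnfaip3 and Nfkbid was not tested.

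The following examples were chosen after their values were seen. Atf3, a stress-induced transcription factor, was at 1421 and 147 (WT) and 1306 and 574 (cKO) in FO cells, and 6474 and 693 (WT) and 2295 and 3947 (cKO) in MZ cells. Nr4a1, which reports antigen receptor signalling, was at 16637 and 6551 (WT) and 19310 and 12101 (cKO) in FO cells, and 23203 and 8711 (WT) and 11641 and 21513 (cKO) in MZ cells. Both were high where Rel was high within each group. The immediate early gene Ppp1r15a was also the gene outside the 10 most like Nfkbid over the 8 libraries, with Pearson's r of 0.98. The genes most like Rel were Ddx5, Sf1 and Dcaf5, and those most like Tnfaip3 were Aldh1b1, Spty2d1 and Ninj1. None of these is on the immediate early list. Fos, in contrast to Atf3 and Nr4a1, was higher in replicate 2 of every group, by 0.88 on the log2 scale in WT FO and 0.78 in WT MZ. The NF-kB target genes had no such common direction, with 4 of 20 at least 1.5-fold higher in replicate 1 and 3 in replicate 2 of WT FO, and 5 and 5 in WT MZ.

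**Figure D5:**
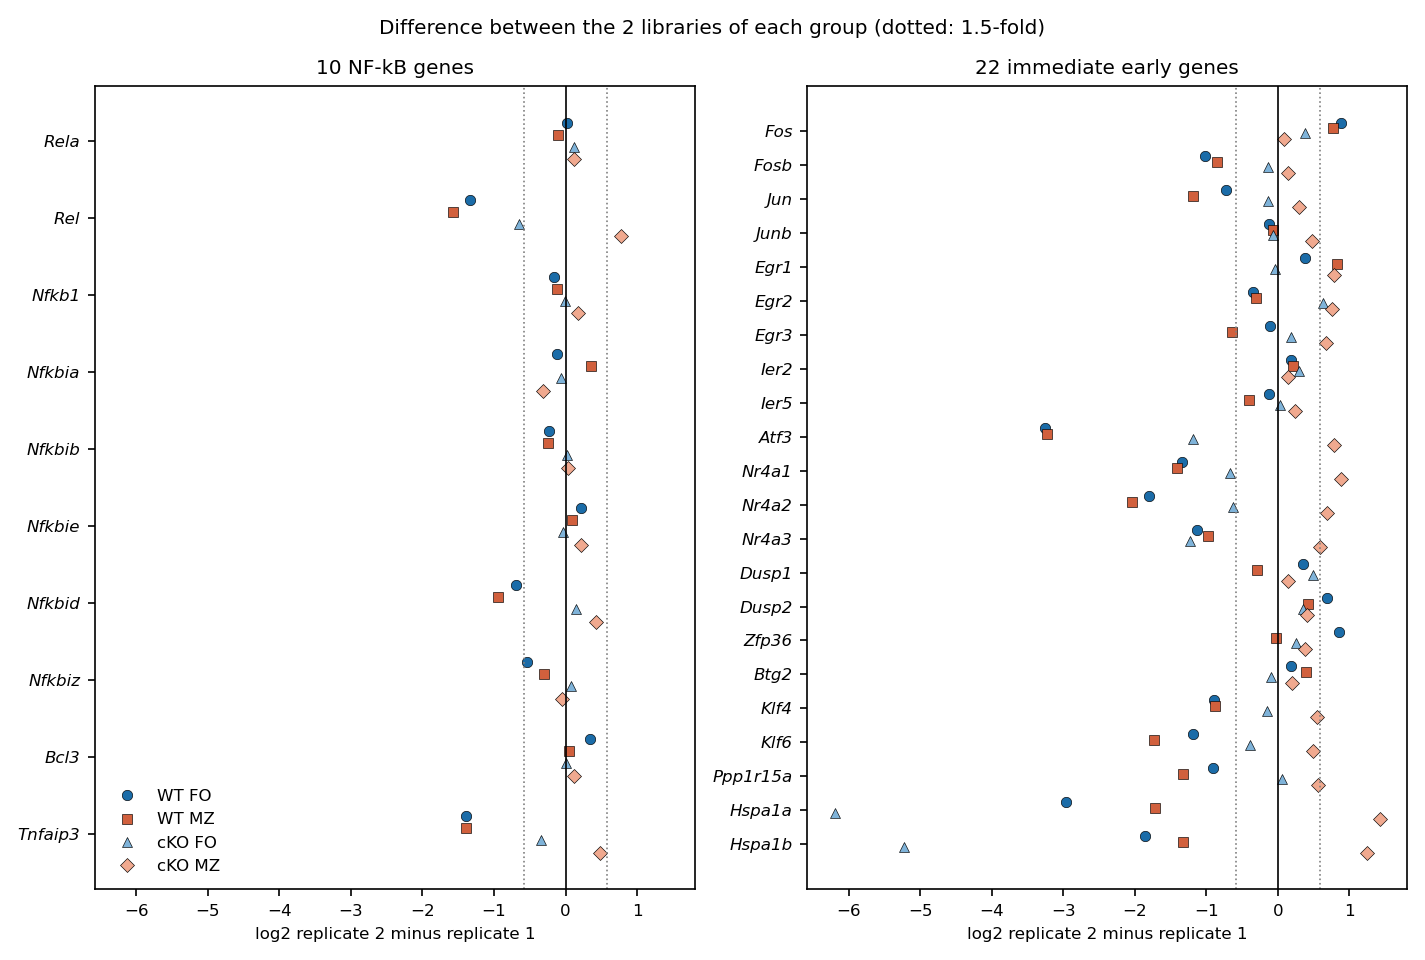
Log2 difference between the libraries of each group, replicate 2 minus replicate 1 (x axis, dotted lines at 1.5-fold), for the 10 NF-kB genes (left) and 22 immediate early genes (right), with 1 symbol per group. In FO cells Rel lies at -1.33 (WT) and -0.65 (cKO) and in MZ cells at -1.57 (WT) and 0.77 (cKO), Atf3 lies at -3.26, -1.18, -3.22 and 0.78 in the same order, and Rela stays between -0.11 and 0.12.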

How the data were processed

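RNA-seq of 8 libraries (4 groups of 2) was used, and 8 ATAC-seq samples were not analysed here. Per the labels and the study's methods, rRNA-depleted total RNA was read as 50-base single ends on an Illumina NextSeq instrument, aligned to mm10 with HISAT2, counted per gene and scaled with DESeq2 in Galaxy; versions and the use of strand are not given in the sources used here. The authors deposited the result as 1 signal table, counts divided by a size factor per library. Dividing by each library's smallest step gave whole reads for 100% of values within 0.05, and 21546552 to 25083552 reads per library, which covers counting error only. Depth was thus similar between libraries.

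The members and gene lists were chosen with earlier results of these data known. Normalised counts entered limma 3.58.1 (R 4.3.3) as log2(value + 1), in 1 fit of the 4 groups with a mean-variance trend, over 14761 genes with a mean of at least 10. Fold changes are on that scale, and p-values were adjusted over all genes (Benjamini-Hochberg). A call needed an adjusted p of at most 0.05 and 1.5-fold. Alternatives were a pseudocount of 0.5, no filter, quantile normalization, only the libraries compared, a replicate block, DESeq2 1.42.0 and edgeR 4.0.16 (quasi-likelihood) on the recovered reads, other fold cutoffs and each library left out. The scripts were tested on simulated data. The named genes were the 10 members, the called genes of each list (at most 4 per direction), 3 genes most like each called member, and checks of labels. Genes most like Rel, Tnfaip3 and Nfkbid, which were not called in the main fit, were named too. Positions are from RefSeq (GRCm38.p6), which is the assembly of mm10, and exon lengths from GENCODE M21.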

Additional observations from a re-analysis of the deposited data

How the results depend on the processing

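Nfkbia was called in FO against MZ under every alternative fit, with log2 differences from 0.85 to 1.06 over both genotypes and adjusted p from 3.9e-15 to 0.0035 by limma, DESeq2 or edgeR, but with a cutoff of 2-fold in place of 1.5-fold the standard settings called 0 members in WT, in cKO and over both. With 1 library left out, its difference ranged from 0.81 to 1.17 in WT and from 0.79 to 1.11 in cKO. Over both genotypes 2 members were called after quantile normalization, with the replicate block and with the cKO MZ numbers exchanged in that block, and 6 without a fold cutoff. The extra gene in the first 3 was Nfkbid, at -0.78 after quantile normalization and -0.65 with either block. In cKO 3 were called after quantile normalization, where Nfkbiz was added at -0.59. In WT 2 members were called with the exchanged block, where Nfkbid was at -0.74. Leaving out 1 library gave 1 to 2 members in WT and 1 to 3 over both genotypes, with -1.21 for Nfkbid in WT without WT MZ replicate 2. A lone library was assumed to vary like the other groups. The difference over both genotypes turned to -0.009 for Rel and -0.047 for Tnfaip3 without WT FO replicate 1, and to -0.069 and -0.046 without WT MZ replicate 2, and the cause was not tested. With 1 library left out it ranged from -0.069 to 0.72 for Rel and from -0.047 to 0.65 for Tnfaip3. Of 418 alternative values of named genes, 406 kept their direction and call. Part of these could not change direction, since the block fits and the removal of a library outside the comparison leave the difference as it is. A gene below the fold cutoff also kept its uncalled state where its adjusted p changed. Over both genotypes the adjusted p of Nfkb1, Nfkbib and Nfkbie did not stay at or under 0.05 in every alternative fit, whereas that of Rela, Nfkbia and Bcl3 did.

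The replicate numbers were not shown to pair samples, since deviations from the group means correlated between same-numbered libraries at 0.59 for WT FO with WT MZ, -0.00 for cKO FO with cKO MZ, 0.29 for WT FO with cKO FO and -0.30 for WT MZ with cKO MZ. The exchanged block was added after seeing the data. No member was called between genotypes under any alternative by limma, DESeq2 or edgeR. Over all genes, FO against MZ gave 1014 calls from only the WT libraries, 1325 in cKO at 2-fold, 1073 to 2119 in cKO with a library left out, and over both genotypes 4926 without a fold cutoff and 1647 at 2-fold. Calls of cKO against WT in FO numbered 4 with only the libraries compared, 16 with the exchanged block, 24 by DESeq2 and 4 to 11 with a library left out. In MZ they were 12 with the exchanged block and 47 by DESeq2. Over both subsets they were 37 and 69, and 8 to 17 with a library left out. With 2 libraries per group, the 95% intervals of Rel and Tnfaip3, before adjustment, reached above 2-fold even over both subsets or both genotypes. A call rests on the adjusted p, so that differences larger than these could also go uncalled. Within a subset the intervals were wider. In FO the 95% interval of the fold, cKO over WT, ran from 0.448 to 3.01 for Rel and from 0.550 to 3.02 for Tnfaip3.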
